A study of Sus scrofa with 105 samples.

Results

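The frontal lobe of piglets (Sus scrofa) 1 day after diffuse traumatic brain injury was compared with that of sham or naive piglets by small RNA sequencing. The members are the libraries whose labels give the frontal lobe and either the injured 1 day group (10 libraries) or the sham and naive group (18 libraries), 28 of the 105 libraries of the series, and 1 row of the count table was used per mature miRNA name. The 1 day animals were untreated females that survived 1 day after the injury. The sham and naive animals were untreated females as well, pooled under 1 label with survival of 0 to 8 days, so operated and naive animals and different survival times cannot be told apart within that group. All tissue was formalin-fixed and paraffin-embedded, and neither group was given cyclosporine A. No source used here gives the age beyond the word piglet, or the breed. Each animal code was taken to stand for 1 animal, with 1 frontal library each.

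miRNAs are short RNAs cut by Drosha and Dicer from a hairpin precursor; either arm of the hairpin, 5p or 3p, can be loaded into Argonaute, where it represses messenger RNAs that pair with its seed. The brain carries a characteristic set, with miR-9 and miR-124 in neural cells, miR-219 and miR-338 in oligodendrocytes, and let-7 rising as neural tissue matures. Injury of the brain sets off neuronal firing, cell death, vascular leakage and a glial response within the first day.

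Levels are given in CPM (counts scaled to a common library total) after trimmed-mean (TMM) scaling of the library totals. After that scaling CPM values are not shares of a library's counts. The let-7 and miR-98 names summed to as much as 1298000 CPM in a sham library. Differences are log2 fold changes of 1 day minus sham from edgeR's quasi-likelihood test, with Benjamini-Hochberg adjustment over the 293 miRNAs tested, and a miRNA is called higher or lower where the adjusted p is under 0.05. Library totals ran from 5857491 to 12413430 counts (median 10314189) at 1 day, against 98996 to 13194782 counts (median 4768190) in sham. Sham replicates 15 and 16 held 98996 and 689899 counts, so a count of 0 in sham replicate 15 allows up to 30.3 CPM (3 counts). The brain markers were abundant in both groups, with miR-124a at 5640.4 to 9327 CPM in 1 day libraries, against 6157 to 12241 CPM in sham libraries and miR-128 at 6034 to 8358 CPM in 1 day libraries, against 5545 to 8769 CPM in sham libraries. The liver marker miR-122-5p reached at most 107 CPM at 1 day and 189 CPM in sham. In bulk tissue, fewer cells of a type and less RNA per cell cannot be told apart.

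Of the sham libraries, 3 lay among the 1 day libraries. Sham replicates 1, 9 and 18 fell within the range of the 1 day libraries for all of the 12 largest decreases. For 9, 10 and 11 of the 12 largest increases they lay at or above the lowest 1 day library. Sham replicate 9 exceeded every 1 day library for miR-9 and miR-30c-5p, and sham replicate 18 for miR-363. Both sets were ranked by log2 fold change among called miRNAs with a mean of at least 10 CPM in either group. The 3 names of miR-9 counted singly among the increases. Every other sham library lay at or below the highest 1 day library for at most 2 of the decreases. At most 5 of the increases lay at or above the lowest 1 day library in any of them. These 3 libraries had totals of 8013051, 11142227 and 13194782 counts, and their animal codes begin with 12 or 13. Sham replicates 5 and 6 had 4231066 and 9019202 counts and codes of the same kind. They met the same limits for 1 and 0 of the decreases and for 5 and 4 of the increases. Without replicate 1, 9 or 18, each left out alone, 141, 152 and 148 miRNAs were called, against 141 with every library.

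At 1 day 141 of the 293 miRNAs (48.1%) differed from sham, 73 higher (24.9%) and 68 lower (23.2%), and 157 had an unadjusted p under 0.05. The increases were mostly small, with 28 at 1.5-fold or more and 3 at 2-fold or more (miR-451, miR-130b-5p and miR-212), while 47 miRNAs were lower by at least 1.5-fold and 27 by at least 2-fold. In 114 of the 141 calls every 1 day library lay on the same side of the sham median. The groups did not overlap for 1 miRNA (0.341%), miR-107. The split between the directions moved with the scaling: 51.8% of the calls were higher with TMM factors, 68.4% with upper-quartile factors, which moved the median of all miRNAs by 0.20 on the log2 scale, 41.7% with let-7 left out and 41.7% with names that share reads merged. The number of calls fell to 54, 11 higher and 43 lower, with the log10 of the library total as a covariate.

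**Figure D1:**
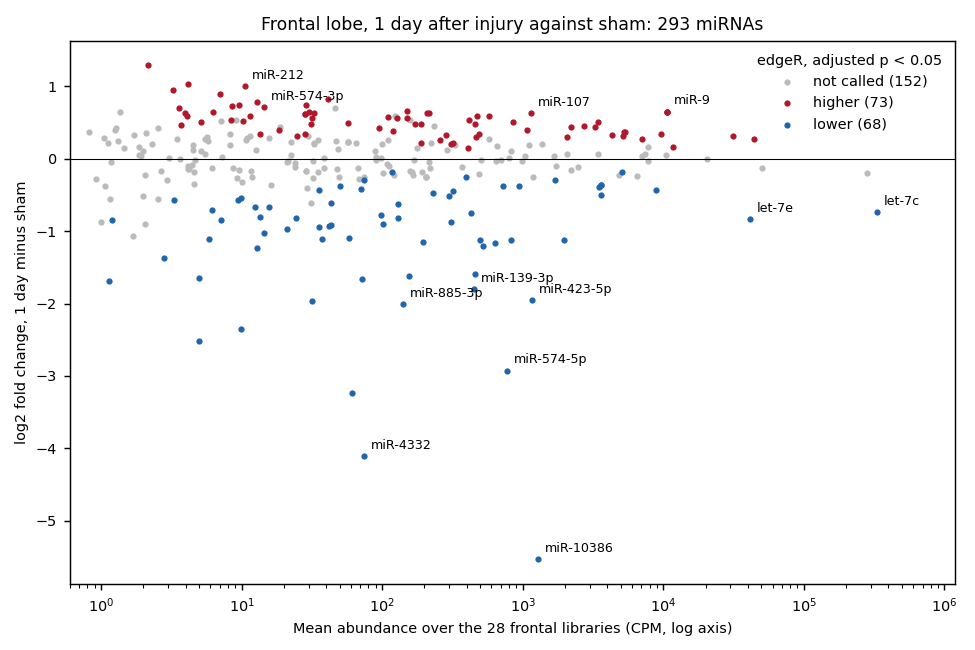
Each point is 1 of the 293 miRNAs, with its mean abundance over the 28 frontal libraries (CPM, log axis) against its log2 fold change at 1 day minus sham. The 73 higher miRNAs (red) stay close to the zero line, with a highest fold of 2.45, while the 68 lower ones (blue) reach miR-10386 at -5.53.

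Among the increases above the level of 10 CPM, miR-212 had the highest fold; it is a product of an activity-responsive neuronal locus that it shares with miR-132. Its lowest, median and highest values were 12.3, 15.9 and 18.7 CPM in 1 day libraries, against 0, 7.76 and 16.7 CPM in sham libraries. All 10 1 day libraries lay above the sham median and 17 of the 18 sham libraries lay below every 1 day library, sham replicate 18 being the exception. The 17 include sham replicate 15, whose count of 0 allows up to 30.3 CPM, so its place is not known. The fold was 2.01 (log2 1.01, SE 0.23, adjusted p = 0.000462). miR-132, the more abundant partner, gave 151, 163 and 226 CPM in 1 day libraries, against 77.9, 174 and 221 CPM in sham libraries, and its difference of -0.02 did not pass (adjusted p = 0.892).

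miR-107, whose gene lies within PANK1, a pantothenate kinase gene of coenzyme A synthesis, was the miRNA without overlap. Its lowest, median and highest values were 1346, 1469.9 and 1729 CPM in 1 day libraries, against 592, 961 and 1338 CPM in sham libraries. The narrowest gap was between 1346 CPM at 1 day and 1338 CPM in sham, and the log2 difference was 0.63 (SE 0.12, adjusted p = 5.4e-05). The related miR-103, encoded within PANK3 and PANK2, was 1.29-fold higher (adjusted p = 0.00185), and its range of 5435 to 6688 CPM in 1 day libraries, against 3317 to 6546 CPM in sham libraries overlapped.

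miR-9, which acts in neural progenitors and in neurons, was the most abundant of the larger increases. The table lists it as miR-9, miR-9-1 and miR-9-2 with nearly the same counts, so these 3 names count as 1 result. It had 9784, 12934 and 19200 CPM in 1 day libraries, against 5357, 7049 and 20710 CPM in sham libraries. Sham replicate 9 held the highest value of all 28 libraries, and 13 sham libraries lay below every 1 day library. The fold was 1.57 (adjusted p = 0.00138); with the log10 library total as a covariate the difference was 0.37 and did not pass (adjusted p = 0.0667).

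miR-27a, which shares a precursor transcript with miR-23a and miR-24, had 34.1, 59.3 and 87.1 CPM in 1 day libraries, against 11.6, 27.9 and 78.6 CPM in sham libraries. No sham library exceeded all 1 day libraries and 14 lay below all of them, and the fold was 1.77 (adjusted p = 0.00155). Of the 6 names of the miR-23, miR-24 and miR-27 clusters 5 rose (0 with the log10 library total as a covariate). miR-23a, the partner of miR-27a, was 1.34-fold higher (adjusted p = 0.00603), and the paralogous miR-23b and miR-27b-3p were 1.45-fold and 1.55-fold higher (adjusted p = 0.00539 and 0.00435). In the mouse, miR-23a and miR-27a have been described as repressors of pro-apoptotic genes after brain trauma. miR-24-3p, the third product of both transcripts, had 1365 to 1608 CPM (median 1508) in 1 day libraries, against 1029.5 to 1611 CPM (median 1279.5) in sham libraries and did not pass (log2 0.21, adjusted p = 0.0603), though it passed with RLE factors (adjusted p = 0.0298), upper-quartile factors (adjusted p = 0.00156), DESeq2, limma voom and no filter, within codes beginning 11, with the code class as a term, and without sham replicate 3 or 5 (lowest adjusted p = 0.0416).

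The other large increases were of modestly abundant miRNAs. miR-148b-3p, of a family that includes the DNA methyltransferase regulator miR-148a, ran from 5.66 to 20.0 CPM in 1 day libraries, against 0 to 19.4 CPM in sham libraries (1.86-fold, adjusted p = 0.00801). miR-17-3p, an arm of the first precursor of the miR-17-92 cluster, ran from 30.0 to 49.8 CPM in 1 day libraries, against 11.6 to 46.7 CPM in sham libraries (1.67-fold, adjusted p = 0.000482). miR-505, an X-linked miRNA in mammals, had 11.9 to 22.1 CPM in 1 day libraries, against 0 to 21.6 CPM in sham libraries (1.72-fold, adjusted p = 0.0017). All 10 1 day libraries exceeded the sham median for each of these, and the groups overlapped for each. miR-22-5p, miR-363, miR-574-3p and miR-30c-5p completed the 12 names with folds of 1.67, 1.66, 1.64 and 1.59. With the log10 library total as a covariate, 3 of the 12 increases passed: miR-212, miR-17-3p and miR-574-3p.

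**Figure D2:**
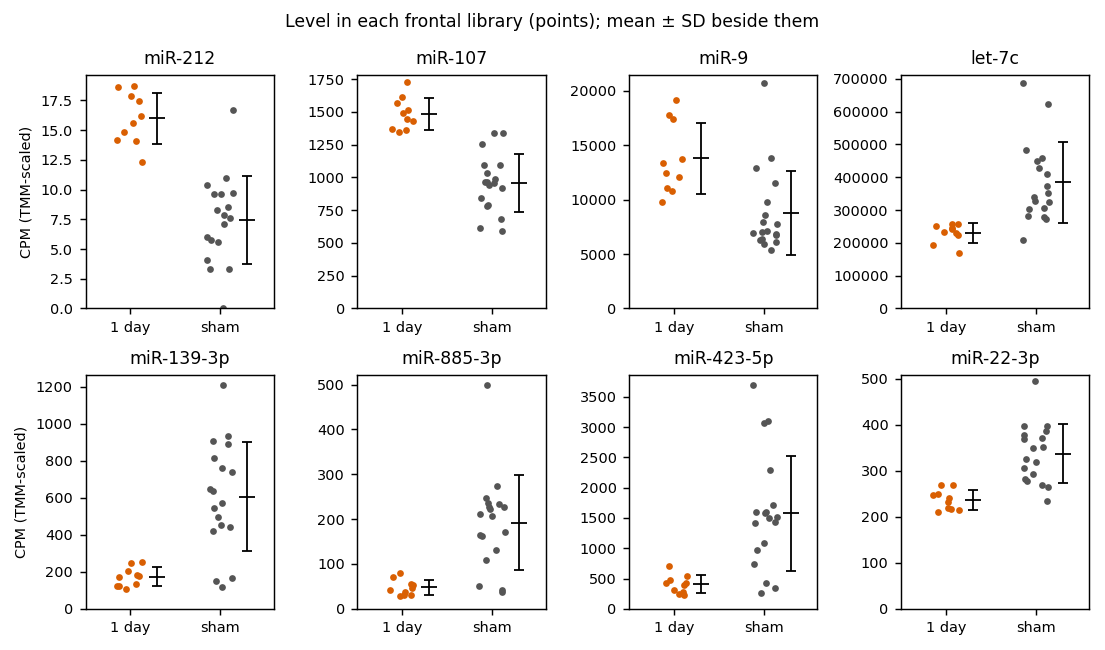
Points are the 10 libraries at 1 day (orange, left) and the 18 sham libraries (grey, right) for 8 miRNAs, in CPM from 0, with the mean and SD beside them. miR-107 separates the groups. miR-212 does so but for 1 sham library and for sham replicate 15, whose count of 0 allows up to 30.3 CPM. For miR-139-3p, miR-885-3p and miR-423-5p 3 sham libraries sit at the 1 day level while most sit far above it.

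The decreases reached larger folds, and several were of single arms of a hairpin. miR-139-3p is 1 arm of a hairpin within PDE2A, a phosphodiesterase gene active in brain. It had 108, 174 and 254 CPM in 1 day libraries, against 118, 606 and 1209.9 CPM in sham libraries. Of the sham libraries 15 lay above every 1 day library, and replicates 1, 9 and 18, at 165, 118 and 152 CPM, did not. It was 3.49-fold lower (SE of the log2 value 0.30, adjusted p = 4.9e-05).

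miR-885-3p, from a hairpin within the calcium pump gene ATP2B2, had 27.4, 44.9 and 80.2 CPM in 1 day libraries, against 37.6, 209.7 and 498 CPM in sham libraries, a 4.01-fold decrease (adjusted p = 4.9e-05). miR-423-5p, a broadly expressed miRNA whose gene lies within NSRP1, was the most abundant of the decreases above 3-fold that do not rest on sham replicates 15 and 16. Its values were 235, 411 and 702 CPM in 1 day libraries, against 255, 1502 and 3693 CPM in sham libraries, and it was 3.88-fold lower (adjusted p = 4.9e-05). Its other arm, miR-423-3p, fell 2.15-fold (adjusted p = 4.9e-05). For all 3 names the same 15 sham libraries lay above the 1 day range.

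miR-193a-5p (4.92 to 18.6 CPM in 1 day libraries, against 6.94 to 92.7 CPM in sham libraries), miR-769-3p (15.5 to 44.7 CPM in 1 day libraries, against 26.2 to 187 CPM in sham libraries), miR-1307 (36.5 to 109.6 CPM in 1 day libraries, against 49.0 to 454 CPM in sham libraries), miR-296-3p (126 to 305 CPM in 1 day libraries, against 146 to 1159 CPM in sham libraries) and miR-92b-5p (1.17 to 4.86 CPM in 1 day libraries, against 1.71 to 56.3 CPM in sham libraries) fell by 1.96, 1.65, 1.62, 1.59 and 2.35 on the log2 scale. Their adjusted p-values were 6.41e-05, 4.9e-05, 4.9e-05, 4.9e-05 and 4.9e-05. Every 1 day library lay below the sham median for each, and 15 sham libraries exceeded the 1 day range for each.

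The size of the 4 largest folds rested in part on the shallow sham libraries. miR-10386, a miRNA named in the pig, had 13.5, 40.8 and 84.8 CPM in 1 day libraries, against 31.3, 334 and 13546 CPM in sham libraries, with 13020 and 13550 CPM in sham replicates 15 and 16. It was 46.1-fold lower (adjusted p = 5.4e-05), 29.7-fold lower without sham replicate 16, and without both replicates the log2 difference was -3.75 (adjusted p = 0.000206). miR-4332 and miR-4331-3p, also named in the pig, fell 17.2-fold and 9.43-fold, against 8.97-fold and 3.85-fold without sham replicate 15, which held 1324 and 1277 CPM. miR-574-5p fell 7.60-fold (adjusted p = 0.000795) and 2.09-fold (adjusted p = 0.00668) without sham replicate 15, where it reached 15290 CPM. All 4 stayed called without both replicates. With the log10 library total as a covariate, 9 of the 12 decreases passed, and miR-574-5p, miR-4331-3p and miR-4332 did not.

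The most abundant miRNAs moved less than the 12 largest decreases, though miR-9 was also among the 12 largest increases. At 1 day let-7a had a higher mean than let-7c (257210 against 230080 CPM). Over the 28 libraries let-7c, a member of the let-7 family that accumulates as tissue differentiates, was the most abundant miRNA. It had 168140, 238270 and 257010 CPM in 1 day libraries, against 209040, 346100 and 686980 CPM in sham libraries, with 17 sham libraries above the whole 1 day range and sham replicate 18 at 209000 CPM within it. It was 1.67-fold lower (adjusted p = 0.00029). let-7e, at 22105 to 32288 CPM in 1 day libraries, against 24645 to 76781 CPM in sham libraries, was 1.78-fold lower (adjusted p = 7.03e-05), while let-7g and let-7i-5p were 1.20-fold and 1.24-fold higher (adjusted p = 0.0243 and 0.0119). The let-7g call was lost without 1 day replicate 1 or 2 and that of let-7i-5p without 1 day replicate 1 (highest adjusted p = 0.108 and 0.0601). Neither passed in a fit of the 28 libraries alone (adjusted p = 0.0946 and 0.0509), with the code class as a term or with the log10 library total as a covariate. let-7a (235370 to 294090 CPM (median 257060) in 1 day libraries, against 218710 to 422890 CPM (median 281700) in sham libraries) and let-7f-5p (39273 to 63543 CPM (median 44819) in 1 day libraries, against 37603 to 76924 CPM (median 50722) in sham libraries) did not pass (log2 -0.20 and -0.13, adjusted p = 0.0704 and 0.256). let-7a passed once 1 of sham replicates 1, 5, 8, 9 and 18 and 1 day replicate 1 was left out (lowest adjusted p = 0.0328). Because let-7 members differ by few bases, reads can be credited to the wrong one, which makes each single value uncertain. The family as a whole took 68.6% to 74.39% of the counts (median 72.76%) in 1 day libraries, against 70.44% to 84.17% (median 78.05%) in sham libraries.

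miR-26a, abundant in most tissues, had 16774, 20369 and 24118 CPM in 1 day libraries, against 16434, 20208 and 24557 CPM in sham libraries, and its log2 difference was -0.0049 (SE 0.07, adjusted p = 0.955); with upper-quartile factors it was 0.20 and passed (adjusted p = 0.038). miR-151-5p, from a gene within PTK2, was 1.12-fold higher (adjusted p = 0.0268), a call that leaving out sham replicate 2, 8, 9 or 12, or 1 day replicate 1, ended (highest adjusted p = 0.0952). miR-16, of a ubiquitous family that represses cell cycle genes, was 1.21-fold higher, at 7136 to 9327 CPM in 1 day libraries, against 5253 to 7417 CPM in sham libraries (adjusted p = 0.000825).

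The arms of 1 hairpin share a transcript, and the ratio of the 5p to the 3p count within a library does not depend on the scaling. Pairs were matched by name, and some arms match more than 1 precursor gene, among them miR-30c-5p, miR-129a-5p and miR-199a-3p. The ratios of those pairs need not reflect 1 hairpin. For 61 precursor names both arms were tested, and the log2 ratio differed between 1 day and sham for 24 (39.3%; permutation test over libraries with 100000 resamples, adjusted over the 61 pairs). The ratio moved toward 5p in 14 and toward 3p in 10. The less abundant arm lost ground in 11 of these pairs and gained in 13. No pair separated the groups without overlap. Within codes beginning 11 (5 against 6 libraries) 13 of the 61 pairs passed, and within codes beginning 12 or 13 (5 against 5) 0 passed and 13 had an unadjusted p under 0.05 (exact permutation tests, adjusted over the pairs).

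For miR-885 the log2 ratio of 5p to 3p had lowest, median and highest values of -1.10, -0.17 and 0.68 in 1 day libraries, against -5.33, -2.92 and -0.21 in sham libraries, a difference of 2.65 (permutation test, adjusted p = 0.000366). Here the 5p arm was called higher, 1.56-fold (34.2 to 44.6 CPM in 1 day libraries, against 0 to 39.8 CPM in sham libraries), and the 3p arm lower. The arms were called in opposite directions in 5 pairs: miR-885, miR-22, miR-30b, miR-30c and miR-574. For miR-22 the minor 5p arm rose 1.67-fold and the 3p arm, a widely expressed miRNA that reached 211 to 268 CPM in 1 day libraries, against 234 to 494 CPM in sham libraries, fell 1.43-fold (adjusted p = 0.00377 and 4.9e-05).

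The ratio of miR-574 moved the other way, with log2 values of 2.18, 3.04 and 3.52 in 1 day libraries, against 3.06, 4.51 and 8.62 in sham libraries (difference -1.95, permutation test, adjusted p = 0.000366). Its 3p arm rose 1.64-fold, with 14.9 to 22.5 CPM in 1 day libraries, against 4.97 to 31.1 CPM in sham libraries, while the 5p arm fell. For miR-30b and miR-30c, whose 5p arms carry the shared seed of the miR-30 family, the 5p arms rose 1.48-fold and 1.59-fold and the 3p arms fell 1.54-fold and 1.33-fold. The miR-30b-5p call was lost without 1 day replicate 1 (adjusted p = 0.061).

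In some of the other pairs 1 of the arms was called with TMM factors, and in others both arms were called in the same direction. The dominant miR-139-5p had 6538, 7801 and 8441 CPM in 1 day libraries, against 5621, 6868 and 10999 CPM in sham libraries, and its difference of 0.07 did not pass (adjusted p = 0.616); the log2 ratio of its arms differed by 1.73 (permutation test, adjusted p = 0.000366). miR-769-5p likewise had 186 to 246 CPM (median 214) in 1 day libraries, against 166 to 270.1 CPM (median 209) in sham libraries (log2 -0.04, adjusted p = 0.713), and its ratio differed by 1.56 (permutation test, adjusted p = 0.000366). With upper-quartile factors both of these 5p arms passed as higher, miR-139-5p by 0.28 and miR-769-5p by 0.18 on the log2 scale (adjusted p = 0.0485 for each). miR-664-5p fell 1.83-fold (adjusted p = 6.47e-05) with miR-664-3p at 5.58 to 13.6 CPM in 1 day libraries, against 2.81 to 15.6 CPM in sham libraries and not passing (adjusted p = 0.13). For miR-92b both arms fell, 5p by 2.35 and 3p by 1.12 on the log2 scale, and the ratio moved by -1.16 (permutation test, adjusted p = 0.00105).

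**Figure D3:**
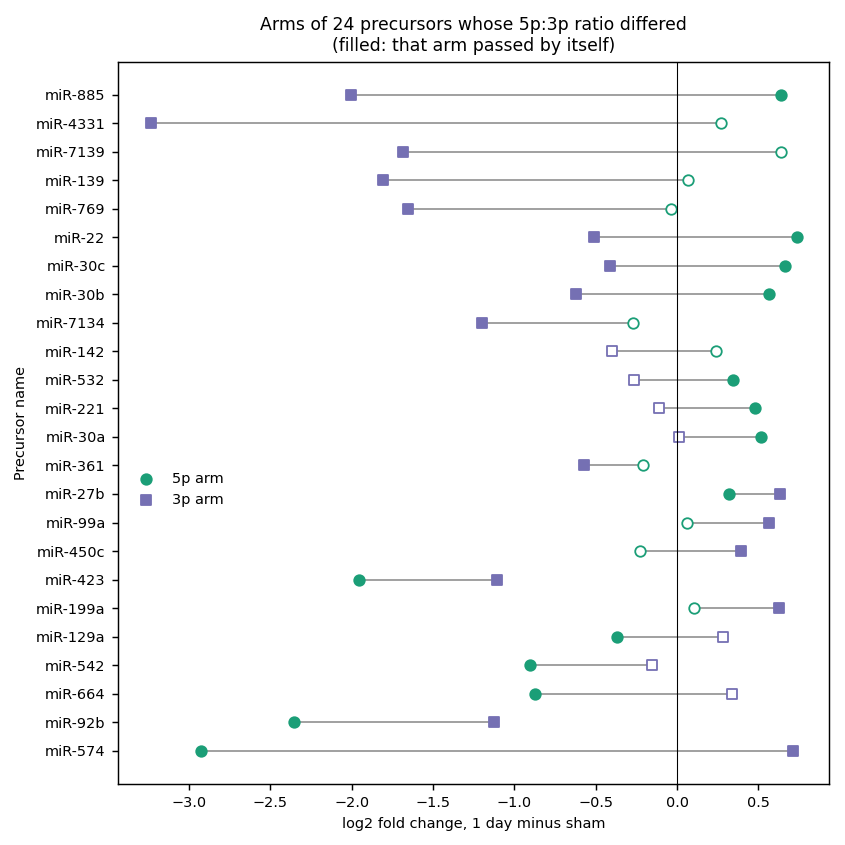
For the 24 precursor names whose 5p to 3p ratio differed, circles (5p) and squares (3p) give the log2 fold change of each arm at 1 day minus sham, filled where the arm passed by itself. miR-885 at the top joins a lower 3p arm to a higher 5p arm (0.64), and miR-574 at the bottom joins a lower 5p arm (-2.93) to a higher 3p arm (0.71).

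Counts over cell type and family lists stand beside 24.9% higher and 23.2% lower over all miRNAs, and within codes beginning 12 or 13 no list had a call (0 of 288 miRNAs, edgeR). Neuron-enriched miRNAs moved in both directions. With names that share reads counted once, 4 of 11 rose and 2 fell, with a median log2 difference of 0.23, against 0.01 over all miRNAs. miR-124a, which in neurons represses non-neuronal transcripts, had 5640.4, 7018 and 9327 CPM in 1 day libraries, against 6157, 9875 and 12241 CPM in sham libraries and was 1.35-fold lower (adjusted p = 0.000831). miR-129a-5p, a neuronal miRNA, was 1.29-fold lower (adjusted p = 0.00801). miR-138, found at synapses in rodents, was 1.27-fold higher at 9988 to 14220 CPM in 1 day libraries, against 5918 to 11735 CPM in sham libraries (adjusted p = 0.0051), and miR-137 was 1.42-fold higher (adjusted p = 0.00801). The counts moved with the scaling: 11 of its 16 names rose and 1 fell with upper-quartile factors, against 6 and 3 with TMM factors, while 0 rose and 1 fell with the log10 library total as a covariate. miR-128 had 6034 to 8358 CPM (median 7231) in 1 day libraries, against 5545 to 8769 CPM (median 6629) in sham libraries and did not pass (log2 0.04, adjusted p = 0.666).

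Of 3 oligodendrocyte names 1 was lower, and 0 with upper-quartile factors or with the log10 library total as a covariate. miR-219b-3p, with 297 to 393 CPM (median 359.5) in 1 day libraries, against 287 to 545 CPM (median 416) in sham libraries, fell 1.19-fold (adjusted p = 0.00752). miR-338, which promotes oligodendrocyte maturation in rodents, had 784 to 1495 CPM (median 988) in 1 day libraries, against 761 to 2040.2 CPM (median 1209.6) in sham libraries and did not pass (log2 -0.25, adjusted p = 0.0816), but passed once 1 of sham replicates 2, 7, 8 and 17 and 1 day replicates 1 and 2 was left out (lowest adjusted p = 0.014). In the miR-29 family (1 of 3 names higher), which in rodent brain rises with maturation, miR-29a-3p was 1.35-fold higher at 2287 to 3235 CPM in 1 day libraries, against 1235 to 2977 CPM in sham libraries (adjusted p = 0.000444) and miR-29c was not called (log2 0.04, adjusted p = 0.763).

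Of 5 names linked to glial inflammation 2 rose, miR-21-5p and miR-146b. The count was 0 with let-7 left out, with the 28 libraries alone, with names that share reads merged and with the log10 library total as a covariate, and 3 with upper-quartile factors. miR-21-5p, induced in reactive astrocytes, had 103, 139 and 199 CPM in 1 day libraries, against 57.5, 93.5 and 168 CPM in sham libraries and was 1.30-fold higher (adjusted p = 0.0208), a call lost without 1 day replicate 2 (adjusted p = 0.0748). miR-155-5p, a mediator of macrophage and microglial activation, had 241 to 400.4 CPM (median 302) in 1 day libraries, against 198 to 371 CPM (median 277) in sham libraries (log2 0.12, adjusted p = 0.291). miR-146b was 1.27-fold higher (adjusted p = 0.0424), but the call was lost when any 1 of 17 of the 28 libraries was left out, namely sham replicates 1, 2, 3, 4, 8, 9, 10, 12, 14, 15 and 16 and 1 day replicates 1, 2, 6, 7, 8 and 9 (highest adjusted p = 0.111).

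None of 5 leukocyte names passed in edgeR, and the summed level of the list ran from 594.9 to 985 CPM at 1 day, against 463.5 to 1323 CPM in sham. The myeloid miR-223 had 2.55 to 6.99 CPM (median 5.04) in 1 day libraries, against 0 to 8.43 CPM (median 4.64) in sham libraries (log2 0.19, adjusted p = 0.504), and miR-142-5p had 17.6 to 47.1 CPM (median 22.7) in 1 day libraries, against 0 to 39.0 CPM (median 21.8) in sham libraries (adjusted p = 0.359). The log2 difference of miR-142-5p was 0.24 and that of its other arm, miR-142-3p, was -0.40 (adjusted p = 0.108). The log2 ratio of 5p to 3p of miR-142 moved by 0.72 (permutation test, adjusted p = 0.0119). The more abundant miR-342 and miR-150 gave -0.03 and 0.01 (adjusted p = 0.892 and 0.949). Of the erythroid names miR-486 fell 1.77-fold (41.7 to 142 CPM in 1 day libraries, against 47.0 to 311 CPM in sham libraries, adjusted p = 0.00146). miR-451, the erythrocyte miRNA made without Dicer, was near its detection limit at 1.23 to 9.77 CPM (median 2.78) in 1 day libraries, against 0 to 9.36 CPM (median 0.530) in sham libraries. Its fold of 2.45 (adjusted p = 0.0384) was the largest increase of any miRNA called, and it was lost without any 1 of sham replicates 1, 2, 3, 5, 8, 9, 10, 12 and 14 and 1 day replicates 2, 7, 8 and 10 (highest adjusted p = 0.131).

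Of 5 endothelial names 2 rose and 0 fell, and among codes with the letter U 1 rose and 1 fell. miR-126-3p, encoded within the endothelial gene EGFL7 in mammals, was 1.25-fold higher at 4777 to 7227 CPM in 1 day libraries, against 2694 to 6945 CPM in sham libraries (adjusted p = 0.0114). miR-221-5p was 1.39-fold higher (adjusted p = 0.00277). Its more abundant other arm, miR-221-3p, did not pass (log2 -0.11, adjusted p = 0.307). The log2 ratio of 5p to 3p of miR-221 moved by 0.60 (permutation test, adjusted p = 0.00264). miR-222 (log2 -0.06, adjusted p = 0.693) and miR-126-5p (log2 0.28, adjusted p = 0.09) did not pass with TMM factors. Of 6 distinct smooth muscle and pericyte names 3 rose and 0 fell, among them miR-143-3p, 1.35-fold with 3168 to 4839 CPM in 1 day libraries, against 1495 to 4882 CPM in sham libraries (adjusted p = 0.0114), and miR-199a-3p, 1.54-fold (adjusted p = 0.0043). miR-145-5p, from the transcript of miR-143, had 81.8 to 131 CPM (median 109.5) in 1 day libraries, against 46.7 to 176 CPM (median 115) in sham libraries and did not pass (log2 -0.10, adjusted p = 0.544). With the log10 library total as a covariate 0 names of either vascular list passed.

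Of 3 muscle names, miR-206 was 1.93-fold lower (13.0 to 30.5 CPM in 1 day libraries, against 15.5 to 71.3 CPM in sham libraries, adjusted p = 0.000191) and miR-1 did not pass (log2 -0.08, adjusted p = 0.731). miR-133a-3p was 1.38-fold higher (adjusted p = 0.0291), a call that did not hold when sham replicate 11 or 1 day replicate 3 was left out (highest adjusted p = 0.073). miR-204, abundant in choroid plexus, was 1.49-fold higher at 118 to 179 CPM in 1 day libraries, against 31.1 to 159 CPM in sham libraries (adjusted p = 0.00403). That call was lost with the log10 library total as a covariate. Of 8 epithelial and choroid plexus names miR-204 was the one that passed; miR-182, from a sensory organ cluster, ran from 3.57 to 705 CPM in 1 day libraries, against 0 to 848 CPM in sham libraries (adjusted p = 0.721). miR-210, the hypoxia-induced miRNA, had 41.9 to 57.5 CPM (median 51.7) in 1 day libraries, against 28.2 to 83.9 CPM (median 44.8) in sham libraries and did not pass (log2 0.13, adjusted p = 0.412), though it passed with upper-quartile factors (adjusted p = 0.0357).

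**Figure D4:**
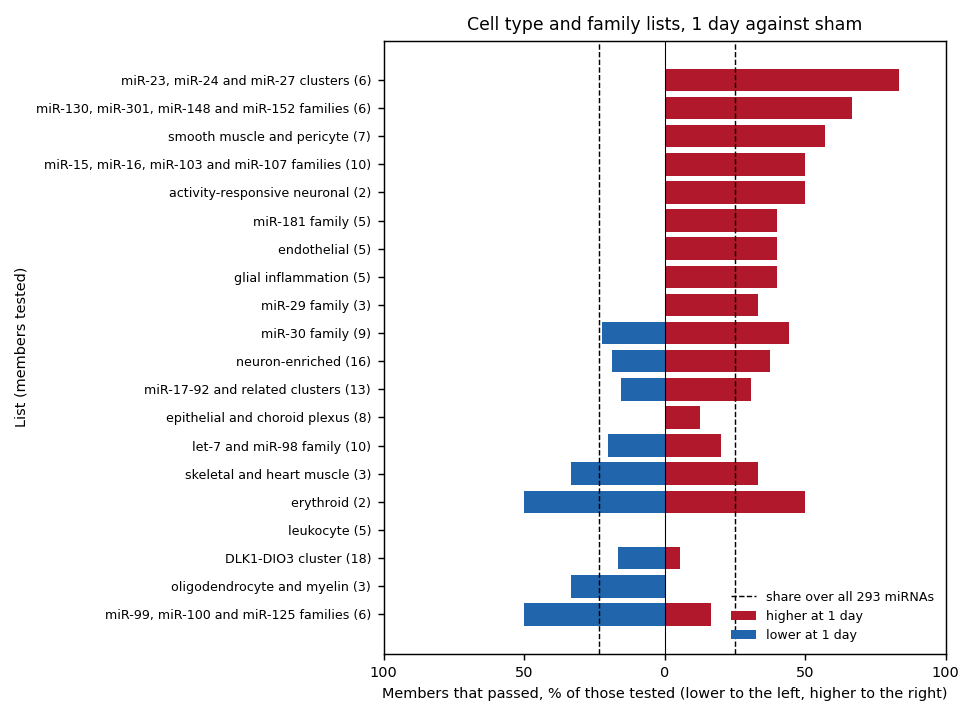
Bars give the percentage of each list's tested members that were lower (blue, left) or higher (red, right) at 1 day, with the number tested in brackets and dashed lines at the share over all 293 miRNAs (24.9% higher, 23.2% lower). The miR-23, miR-24 and miR-27 clusters and the miR-130 and miR-148 families hold increases and no decrease, the miR-30 and neuron-enriched lists hold both, and no leukocyte name passed.

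By family, 4 of 6 names of the miR-130, miR-301, miR-148 and miR-152 families rose, with a median log2 difference of 0.59. miR-130a, which acts in angiogenesis, had 555, 705 and 951 CPM in 1 day libraries, against 332, 461 and 769 CPM in sham libraries (log2 0.59, adjusted p = 5.4e-05). miR-130b-3p had 452 to 741 CPM in 1 day libraries, against 187 to 592 CPM in sham libraries (log2 0.59, adjusted p = 4.9e-05). Of 10 names of the miR-15, miR-16, miR-103 and miR-107 families 5 rose and 0 fell, among them miR-15b, 1.55-fold at 228 to 308 CPM in 1 day libraries, against 77.9 to 257 CPM in sham libraries (adjusted p = 5.41e-05). miR-497 of this family was 1.19-fold higher (adjusted p = 0.0466), a call lost without any 1 of sham replicates 4, 6, 7, 8, 11, 12, 13, 16 and 17 and 1 day replicates 1, 2, 7, 8 and 9 (highest adjusted p = 0.134). Among codes with the letter U, where 1 day and sham shared no first digits, 8 of the 10 names rose and 2 fell. With the log10 library total as a covariate 3 of these 10 names rose and 0 fell. In that fit 2 of the 6 names of the miR-130, miR-301, miR-148 and miR-152 families rose.

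The miR-30 family had 4 of 9 names higher and 2 lower; miR-30a-5p, the most abundant of the higher ones, had 3177, 4356 and 5281 CPM in 1 day libraries, against 2134, 2903 and 4228 CPM in sham libraries (log2 0.51, adjusted p = 8.26e-05), and miR-30d did not pass (log2 -0.23, adjusted p = 0.102) except where sham replicate 9 or 1 day replicate 5 was left out (lowest adjusted p = 0.0378). With the log10 library total as a covariate 1 of the 9 miR-30 names rose and 1 fell. Of 5 names of the miR-181 family 2 rose, and 0 with the log10 library total as a covariate. miR-181a rose 1.26-fold (adjusted p = 0.0183), a call lost without 1 day replicate 3 (adjusted p = 0.0815), and miR-181c rose 1.39-fold (adjusted p = 0.0016). Of 18 names of the imprinted DLK1-DIO3 cluster, a brain-expressed locus with many miRNA genes, miR-370, miR-382 and miR-432-5p fell and miR-381-3p rose (log2 -1.02, -0.40, -0.50 and 0.40). miR-432-5p had 2392, 2858 and 3310.5 CPM in 1 day libraries, against 2730, 3860 and 5474 CPM in sham libraries (adjusted p = 0.000172). With upper-quartile factors 4 of the 18 rose and 2 fell, against 1 and 3 with TMM factors. With the log10 library total as a covariate 0 of the 18 rose and 3 fell. Of 13 names of miR-17-92 and its related clusters 4 rose (miR-17-3p, miR-20a-3p, miR-20a-5p and miR-363) and both arms of miR-92b fell. With the log10 library total as a covariate 1 of the 13 rose and 2 fell.

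Of 6 names of the miR-99, miR-100 and miR-125 families 1 rose and 3 fell, miR-99a-3p against miR-99b, miR-125a and miR-125b. With upper-quartile factors 3 rose and 0 fell, and with the log10 library total as a covariate 0 rose and 0 fell. miR-125b, which acts in neural differentiation, had 4141 to 5216 CPM (median 4748) in 1 day libraries, against 4064 to 6736 CPM (median 5424) in sham libraries and was 1.14-fold lower (adjusted p = 0.036). That call was lost without any 1 of sham replicates 2, 3, 7, 8, 12, 15 and 17 and 1 day replicates 1, 2, 8 and 9 (highest adjusted p = 0.0752), and with upper-quartile factors the difference was 0.03. Of the 10 let-7 and miR-98 names 2 rose and 2 fell, as given with the abundant miRNAs.

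miRNA genes that lie close together are often cut from 1 transcript. In the RefSeq gene table (assembly Sscrofa11.1) 256 of the 293 names matched a precursor gene, 249 of them on a placed chromosome, and 84 formed 28 groups of genes with gaps of at most 10000 bases (8 of the 84 counted in more than 1 group). Of these groups 16 held increases only, 2 held decreases only, 5 held both and 5 had no call. A group counted once any of its members was called. These counts are therefore not comparable with the 24.9% higher and 23.2% lower over single miRNAs. With upper-quartile factors 18 groups held increases only and 2 decreases only, and with the log10 library total as a covariate 4 and 7. On chromosome 6 the neighbours let-7e, miR-99b and miR-125a were all lower, by 0.84, 0.38 and 0.29 on the log2 scale (adjusted p = 7.03e-05, 0.0268 and 0.0143). Leaving out sham replicate 8, or 1 day replicate 1, 2, 8 or 9, ended the miR-99b call (highest adjusted p = 0.0678), and with upper-quartile factors neither miR-99b nor miR-125a passed. On chromosome 13 let-7c was lower beside miR-99a-3p, which was 1.48-fold higher (adjusted p = 0.00145), and miR-99a-5p, which did not pass (log2 0.06, adjusted p = 0.637). The called neighbours of that group had opposite signs.

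Untreated injured animals of the 1 week group, which survived 6 to 8 days (15 frontal libraries) were compared with the 1 day animals. Their animal codes began with 10, 11, 14, 15 or 17, so the first digits shared with the 1 day group were 11 only. Of 293 miRNAs 114 (38.9%) differed, 48 higher and 66 lower at 1 day, and 71 with the log10 library total as a covariate. miR-885-3p averaged 47.6 ± 17.5 CPM at 1 day (n = 10) and 173 ± 133 CPM at 1 week (n = 15), against 192 ± 106 CPM in sham (n = 18), and 1 day minus 1 week was -1.86 on the log2 scale (adjusted p = 0.000213). miR-139-3p gave 173 ± 51.4 CPM at 1 day and 542 ± 268 CPM at 1 week, against 607 ± 294 CPM in sham, with a log2 difference from 1 week of -1.65 (adjusted p = 0.000213). let-7c and miR-15b differed from 1 week by -0.59 and 0.66 (adjusted p = 0.00535 and 0.000213). For miR-138 and miR-21-5p the difference from 1 week did not pass (log2 0.13 and 0.07, adjusted p = 0.306 and 0.697). At 1 week minus sham 0 miRNAs passed in edgeR and 20 had an unadjusted p under 0.05. Restricted to codes beginning 11, 0 of 281 miRNAs differed between 1 day and 1 week, with 73 at an unadjusted p under 0.05. That fit held few libraries, and its 1 week codes lacked the letter U that every 1 day code held.

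In the hippocampus and amygdala of the same 28 animals, by their codes, the 1 day minus sham differences were 0.92 for miR-212, 0.72 for miR-9, -0.72 for let-7c and -1.26 for miR-139-3p, beside 1.01, 0.65, -0.74 and -1.81 in the frontal lobe (log2). Because the animals are the same, the animal codes are spread over the groups in the same way there. These values of single miRNAs are therefore not an independent replicate.

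The first digits of the animal codes were unevenly spread over the groups, and no source used here says what they stand for. At 1 day 5 codes began with 11 and 5 with 12 or 13. In sham 6 began with 11, 5 with 12 or 13, 6 with 14 or 16 and 1 with 10. Every 1 day code held the letter U, while in sham only the codes beginning 14 or 16 held it. The fit of codes with the letter U therefore compared different first digits. Within codes beginning 11, or 12 or 13, the letter differed between 1 day and sham. The letter and the first digits cannot both be matched between these groups. Within codes beginning 11, 98 of 276 miRNAs differed between 1 day and sham, 47 higher and 51 lower. Within codes beginning 12 or 13, 0 of 288 passed in edgeR (5 against 5 libraries), with 48 at an unadjusted p under 0.05. With the code class as a term 109 of 291 (37.5%) passed, 51 higher and 58 lower, and the difference of the 1 day effect between codes 11 and codes 12 or 13 passed for 0 of 291 (smallest adjusted p = 0.221; 24 at an unadjusted p under 0.05).

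Among the sham animals alone, codes beginning 11 and codes beginning 12 or 13 differed in 67 of 291 miRNAs (23%), 30 higher and 37 lower in codes 11. This comparison and that of 1 day with sham share the sham libraries, so their values are set side by side. The sham difference, codes 11 minus codes 12 or 13, ran from -1.48 to 0.01 (median -0.86) on the log2 scale for the 12 named increases, whose 1 day minus sham differences ran from 0.65 to 1.01 (median 0.74). For the 12 named decreases it ran from 0.74 to 4.57 (median 1.09), and 1 day minus sham from -5.53 to -1.59 (median -1.98). It was -1.01 for miR-9 and 0.64 for let-7c (adjusted p = 0.000203 and 0.00541), and -0.44 for miR-212 (adjusted p = 0.23). Among the 1 day animals the same comparison gave 0 calls in edgeR, with 19 at an unadjusted p under 0.05. miR-9 averaged 11789 ± 1526 CPM at 1 day and 6834 ± 859.9 CPM in sham for codes 11, and 15779 ± 3407 CPM at 1 day and 13754 ± 4175 CPM in sham for codes 12 or 13 (SD). The sham mean of codes 12 or 13 lay above the 1 day mean of codes 11. For let-7c the means were 248160 ± 11345 CPM at 1 day and 433240 ± 112730 CPM in sham for codes 11, and 212010 ± 30889 CPM at 1 day and 278130 ± 44115 CPM in sham for codes 12 or 13.

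For miR-885-3p codes 11 had 59.4 ± 16.2 CPM at 1 day and 243 ± 129 CPM in sham, and codes 12 or 13 had 35.7 ± 8.63 CPM at 1 day and 103 ± 100.4 CPM in sham. Of the calls over all libraries 138 were tested within codes 12 or 13, where 131 had the same sign and the median ratio to the log2 difference over all libraries was 0.551; these libraries also entered the fit over all libraries, so the signs are not independent of it. The log2 difference of miR-212 was 0.68 within codes 12 or 13 and 0.95 within codes 11 (adjusted p = 0.235 and 0.00835). For miR-9 the values were 0.17 and 0.77 (adjusted p = 0.691 and 0.000166), and for miR-107 0.40 and 0.75 (adjusted p = 0.235 and 0.000844). The part of the code classes, and of the library totals that differ with them, in the differences at 1 day was not tested beyond these fits.

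**Figure D5:**
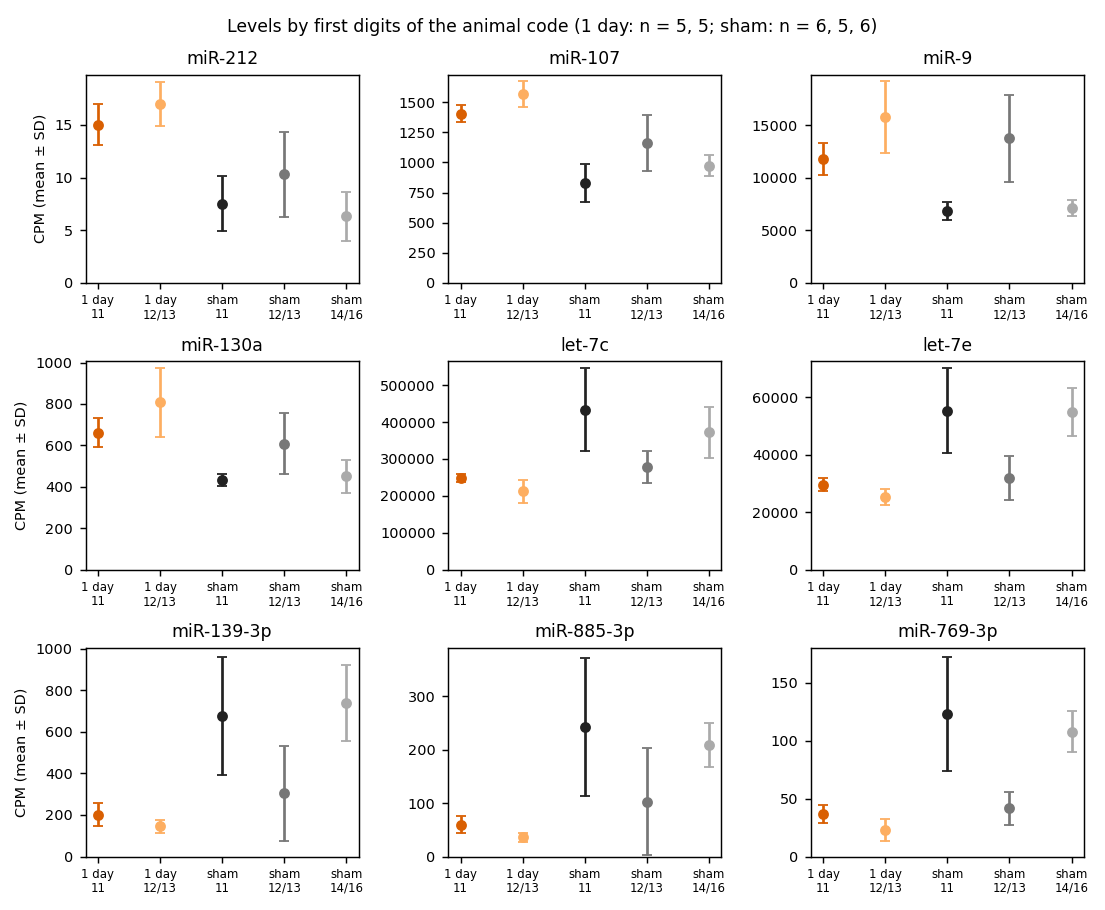
Mean and SD in CPM, from 0, of 9 miRNAs by group and first digits of the animal code, at 1 day (codes 11 and 12 or 13, n = 5 and 5) and in sham (codes 11, 12 or 13, and 14 or 16, n = 6, 5 and 6). For miR-9, let-7c, let-7e, miR-212 and miR-107 the sham mean of codes 12 or 13 lies nearer the 1 day means than that of codes 11. For miR-9 it lies between the means at 1 day. For let-7c and let-7e each sham mean lies above both 1 day means, and for miR-212 and miR-107 each lies below both.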

How the data were processed

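Small RNA was sequenced from formalin-fixed, paraffin-embedded piglet brain, and the authors deposited raw counts per mature miRNA entry and library. Trimmomatic 0.39 and cutadapt 1.9.1 are named per the submitters' processing notes. No source used here names the aligner, counter, genome build, annotation or molecular identifiers. The 542 entries were reduced to 457 mature names by keeping the entry with the highest total, and names with nearly the same counts (6 sets) stayed separate unless stated. All 52 frontal libraries entered 1 fit, so that the groups shared the estimate of spread: filterByExpr (minimum count 10, minimum total 15), TMM factors and edgeR 4.0.16's quasi-likelihood test in R 4.3.3, 2-sided, with Benjamini-Hochberg adjustment and a threshold of 0.05. Each animal code was counted as 1 replicate. The design text gives fewer subjects than there are codes over the whole series, so some codes may share an animal, and p-values measure the spread between these libraries. Intervals and limits for counts of 0 cover counting error only. Arm ratios were log2 of (5p count + 0.5) over (3p count + 0.5), compared by permutation tests over libraries.

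On simulated counts for the 1 day and sham comparison (293 miRNAs, 20 changed at each fold), 50% of the 1.5-fold, 90% of the 2-fold and 100% of the 4-fold changes were recovered. In the same run 2 unchanged miRNAs were called. The simulated counts held no difference between code classes and no tie of level to library total. These shares therefore need not hold for the real comparison. Named miRNAs were the 12 largest increases and 12 largest decreases among calls with a mean of at least 10 CPM in either group, the 10 most abundant, their other arms and the 2 most abundant members of each list; the remaining ones were named after their values were seen. The members and the 22 lists were chosen with earlier results of these data known. Alternatives used DESeq2 1.42.0, limma 3.58.1, other scalings, filters and entries, the library total, the animal codes and thinning to 1528731 counts. Precursor and host gene names came from the RefSeq gene table (assembly Sscrofa11.1).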

Additional observations from a re-analysis of the deposited data

Results flagged for a closer look

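Within the 1 day group, 1 of the 10 libraries stood apart from the others for 9 of 112 values checked with Dixon's test, which by chance marks about 1 in 20 groups. Replicate 1 was high for miR-148b-3p at 19.99 CPM (next 13.29 CPM), for miR-132 at 226.3 CPM (next 173.7 CPM) and for miR-138 at 14220 CPM (next 11570 CPM). Replicate 2 was high for miR-4331-5p at 9.463 CPM (next 6.802 CPM), for miR-451 at 9.768 CPM (next 5.187 CPM) and for miR-142-5p at 47.08 CPM (next 32.76 CPM), and low for miR-103 at 5435 CPM (next 6042 CPM). Replicate 5 was high for miR-92b-3p at 514.9 CPM (next 356.1 CPM), and replicate 8 for miR-126-5p at 1016 CPM (next 753.1 CPM). Of these miRNAs, miR-451 lost its call without replicate 2.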

How the results depend on the processing

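The 12 largest increases and 12 largest decreases passed under RLE and upper-quartile factors, with let-7 left out, under DESeq2 and limma voom, without a filter, with the 28 libraries alone, with entries unmerged, after thinning, among codes with the letter U and without sham replicates 15 and 16. Among codes with the letter U, 1 day and sham shared no first digits. Calls numbered 143 with RLE factors, 145 with DESeq2 and 144 with limma voom, against 141. With the log10 library total as a covariate 54 passed, 11 higher and 43 lower, and 71 for 1 day minus 1 week. Codes beginning 11 gave 98 calls, 47 of them higher, 0 for 1 day minus 1 week and 13 arm pairs. Codes beginning 12 or 13 gave 0 calls, 0 higher and 0 lower, and 0 arm pairs (edgeR, 48 miRNAs at an unadjusted p under 0.05; exact permutation test, 13 pairs at an unadjusted p under 0.05, smallest p 0.00794); the cause was not tested. Leaving out single libraries gave 127 to 152 calls, 59 to 75 higher, 64 to 82 lower, and 19 to 27 arm pairs. Among miRNAs called in either of the fits compared, signs changed with upper-quartile factors for miR-26a (0.20), miR-769-5p (0.18) and miR-125b (0.03), and within codes 12 or 13 for miR-21-5p (-0.03), miR-125b (0.03) and miR-133a-3p (-0.08). Of 1764 values of 111 named miRNAs under settings other than single libraries, 202 lost the call, 28 gained it and 65 turned sign with no call in either fit (8 each with upper-quartile factors and within codes 12 or 13). The totals of 98996 and 689899 counts in sham replicates 15 and 16 limit low miRNAs there. No paired analysis was possible because the labels give no shared replicate numbers and no animal is in both groups.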
